A study of Mus musculus with 1298 samples.

Results

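The cells described here were fetal muscle progenitors of E16.5 mouse embryos, picked from the YFP+ cells of the Pax7 lineage by their levels of Msc, Cdh15, Myf5 and Capn6. Every cell of the 10x and Smart-seq2 single-cell tables was scored on 9 panels of 4 genes each, a score being the mean over the panel of log2(1 + counts per 10000). A cell was a member if the panel of Msc, Cdh15, Myf5 and Capn6 scored highest, the score was at least 0.7 and the cell came from E16.5. This rule found 84 members among 949 10x cells and 64 members among the Smart-seq2 cells of E16.5, of 1291 cells of that day and 3916 cells of all days. The same rule applied to the other days found 15.8% of 10x cells and 54 Smart-seq2 cells at E14.5, and 31 and 44 cells at E12.5. Cells chosen in this way at any day are called M cells. Cells led by the other panels are named by letters: L cells by Myog, Mylpf, Tnni1 and Chrna1, P cells by Ogn, Aspn, Postn and Igf1, D cells by Twist2, Lum, Egfl6 and Thy1, and A cells by Fabp4, Car3, Cox7a1 and Adipoq.

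All embryos carried Pax7CreER and R26R-stop-EYFP, so that tamoxifen turned on YFP for good in cells in which the Pax7 locus was active at that time, and in their progeny. Pregnant mice received 75 µg of tamoxifen per g of body weight at E9.5, and embryos were taken on the days E12.5, E14.5 or E16.5. Limbs, viscera and heads were discarded, the rest was digested with Collagenase II, with Dispase added from E14.5 on, and YFP+ cells of several pooled embryos were sorted. Each day was represented by 1 10x library and by Smart-seq2 cells on several plates, which the labels put in sequencing batches, numbering 3 for the first day, 2 for the next and 1 for the last. No batch held cells of more than 1 day, and no label ties a cell to an embryo or a plate to a pool. A test across days therefore held no spread between embryos. Its error was how far the platforms differed, pooled over cell classes and moderated across genes. The day cannot be told apart from the library, the sequencing batch and the digestion that went with it.

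Skeletal muscle of the trunk is built in waves from dermomyotome cells that express the paired-box factors Pax3 and Pax7. Progenitors that enter myogenesis switch on Myf5 and Myod1, basic helix-loop-helix factors that bind E-boxes, and then Myog, after which they leave the cell cycle and fuse into fibres. Late in gestation, part of the Pax7+ pool settles beneath the basement membrane of the new fibres and becomes the satellite cells, the stem cells of adult muscle. Embryonic and fetal progenitors differ in their programme, and Nfix is a known regulator of the fetal one. Msc (musculin) is a basic helix-loop-helix repressor of the myogenic lineage, Cdh15 (M-cadherin) an adhesion protein of progenitors and satellite cells, and Capn6 a calpain relative without protease activity.

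The members held a median of 1751 UMIs on 10x (at most 4507) and 882089 estimated counts on Smart-seq2, against 1621 and 829980 over all cells of that day. M cells of E14.5 were deeper on 10x (median 8081 UMIs), and M cells of E12.5 shallower on Smart-seq2 (median 232884 counts). The latter were uneven: 1 cell of sequencing batch 1 and 7 cells of batch 2 held 10.5% and 53.2% of the counts in the Smart-seq2 sum of E12.5, and the 36 cells of batch 5 the other 36.3%. Levels are given as CPM (counts per 1000000 counts) of a sum of cells, over the 15147 genes that both tables list. Smart-seq2 reads cover whole transcripts and 10x tags only their ends, so levels are compared between days within a platform and not between genes. Of the members, 1 Smart-seq2 cell exceeded 8% mitochondrial counts. Of the 3 cell barcodes that occurred in more than 1 library, 0 belonged to a member.

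Members made up 8.85% of 10x cells at E16.5 (exact 95% binomial interval 7.12 to 10.8) and 18.7% of Smart-seq2 cells (14.7 to 23.3). The share on the 4 Smart-seq2 plates of that day was 16.48%, 18.2%, 23.1% and 16.7%, so the plates lay close together and all above the 10x share. On 10x the share of M cells had been 3.05% at E12.5 and 15.8% at E14.5, and on Smart-seq2 14% and 16.6%. With 10x cells thinned to 1000 UMIs each, which left 899, 966 and 860 cells of the respective days, the 10x shares became 3.78%, 9.32% and 6.98%. All intervals here cover counting error only.

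Membership rested on little evidence in many 10x cells. Of the 84 members, 39 had counts on 1 panel gene, 34 on 2, 10 on 3 and 1 on all 4, and 12 were members by 1 UMI in all. The 3 members just inside the threshold scored 0.702, 0.708 and 0.723, and the 3 cells just outside scored 0.698, 0.692 and 0.686, all with 1 panel UMI, so their side was set by the cell's total. A further 23 10x cells tied with another panel and were not taken. On Smart-seq2, 54 members had counts on all 4 genes and 10 on 3, the lowest score was 1.69, and no cell lay under the threshold. Of the Smart-seq2 members, 49 also reached 0.7 on another panel, 35 of them on the panel of Ogn, Aspn, Postn and Igf1 and 15 on that of L cells.

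The muscle label was checked against genes outside the panel. Every Smart-seq2 member had a count of at least 1 of Pax7, Myod1, Itga7, Des, Fgfr4 and Actc1, and so did 54 of the 84 10x members (64.3%). On Smart-seq2 such a count was also found in 83.5% of P cells, 64.5% of D cells and 56.25% of A cells of E16.5, so it separated little. The levels there differed more, with the 6 genes at 4122 CPM in members against 102.7, 29.6 and 79.5 CPM in P, D and A cells. The summed level of these 6 genes was 873 CPM in the 10x members, against 24.4 CPM in D cells, 89.7 CPM in P cells and 33.2 CPM in A cells of the same library. Capn6 was the only panel gene in 24 10x members. These 24 cells reached 895 CPM of the 6 muscle genes, close to the 866 CPM of the other 60 members, but 2251 CPM of the fibroblast genes Col1a1, Col3a1, Pdgfra and Dcn, against 516.4 CPM in the other members and 15050 CPM in D cells. The members thus carried muscle genes on both platforms, and the Capn6-only cells also more fibroblast transcripts.

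The panel genes themselves were used to choose the cells, and their levels are a description. Msc (chr1:14753346-14755992 of GRCm38) stood at 143.5, 218.02 and 450 CPM in the 10x M cells of the successive days and at 305.3, 420.7 and 536.8 CPM on Smart-seq2, the highest value being that of E16.5 on both platforms. Cdh15 (chr8:122847966-122867397) stood at 131.5, 121.9 and 134.98 CPM on 10x and at 406.5, 715.5 and 745 CPM on Smart-seq2. Myf5 stood at 275.02, 129.2 and 115.7 CPM on 10x and at 254.6, 143.5 and 298.6 CPM on Smart-seq2, so the platforms differed in which day was lowest. Capn6 (chrX:143802231-143827414) stood at 490, 413.4 and 707 CPM on 10x and at 2168, 3229 and 3167 CPM on Smart-seq2. Over the 4 plates of E16.5, Capn6 ranged from 2989 to 3277 CPM, Cdh15 from 633 to 814 CPM, Myf5 from 230 to 326.1 CPM and Msc from 410 to 772 CPM. In the 10x members Capn6 was seen in 63 cells, Msc in 46, Cdh15 in 18 and Myf5 in 14.

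**Figure D1:**
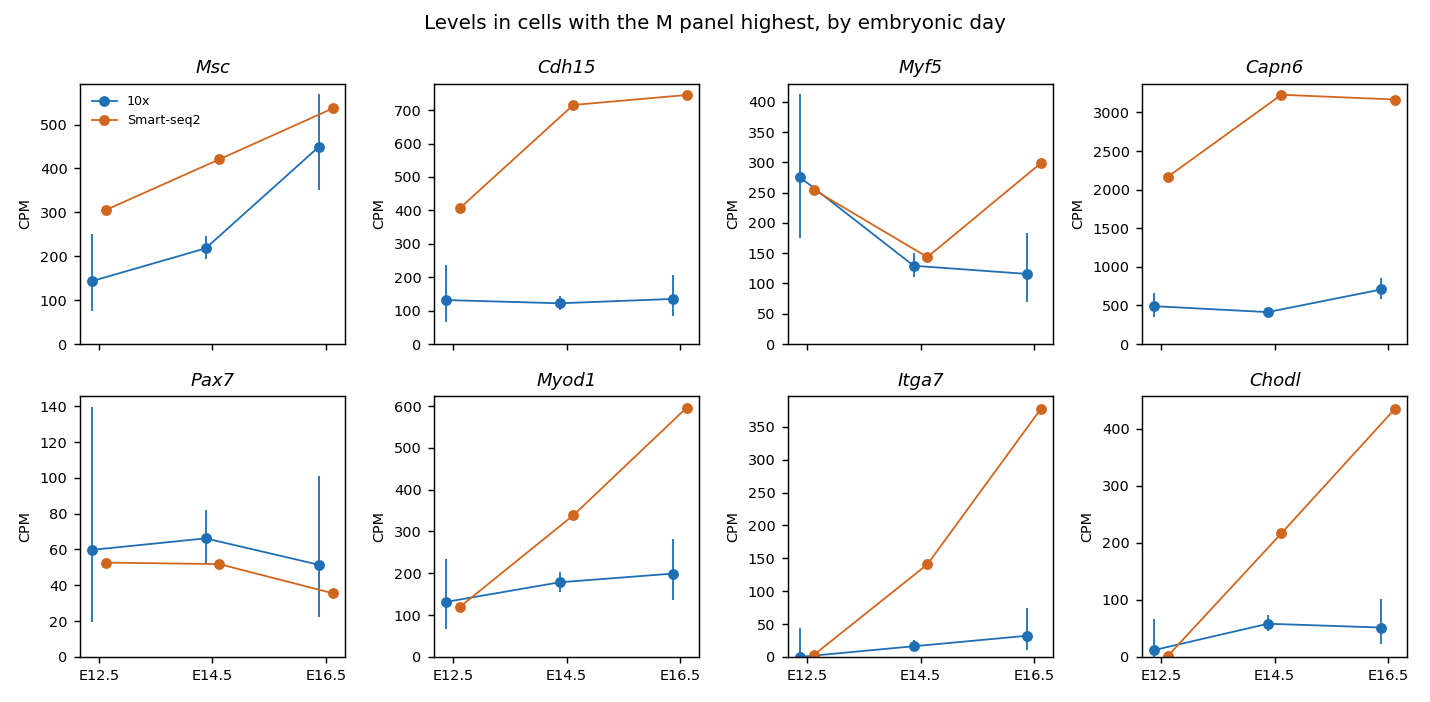
Level in CPM (vertical axis, from 0) of the 4 panel genes (top row) and of Pax7, Myod1, Itga7 and Chodl (bottom row) in M cells at each embryonic day (horizontal axis), with 1 point per platform and day and, for 10x, bars for the exact 95% Poisson interval of the count. Pax7 lay between 35.5 and 66.2 CPM at every point, while the Smart-seq2 levels of Myod1, Itga7 and Chodl were higher at each later day.

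Outside the panels, the genes that set the members most apart from the other E16.5 cells, L cells left out, were muscle genes and a few signals. The 12 leading genes were taken by the smaller of the ratios on the 2 platforms among 890 genes with at least 20 UMIs in the members. Since classes were cut on the same cells, the values are a description. Cck, the gene of the gut and brain peptide cholecystokinin, led the list with 263.5 CPM in 10x members against 3.88 CPM in other cells, and 79.3 against 0.333 CPM on Smart-seq2. It was counted in 26 of the 84 10x members and 38 of the 64 Smart-seq2 members, at 60.1 to 106.4 CPM on the 4 plates. Vgll2, a muscle cofactor of TEAD factors, stood at 224.97 against 2.33 CPM and 55.1 against 0.141 CPM. Mrln, which encodes the micropeptide myoregulin, stood at 212.1 against 3.88 CPM on 10x and was counted in all 64 Smart-seq2 members (46.4 against 0.220 CPM). Myod1 stood at 199.3 against 4.66 CPM and 596 against 0.745 CPM.

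Contractile and cytoskeletal genes made up much of the rest of the list. The leading genes were not compared with L cells, the other muscle class. The list of sarcomere and fusion genes, which holds Actc1, Tnnt1 and Des, was higher in L cells of E16.5 than in members. It summed to 14050 against 1960 CPM on 10x and 29600 against 4799 CPM on Smart-seq2. Actc1, the cardiac actin that embryonic skeletal muscle also uses, stood at 392.1 against 19.4 CPM on 10x and 2452 against 25.9 CPM on Smart-seq2. Tnnt1, the slow troponin T, stood at 314.95 against 14 CPM and 238.2 against 3.20 CPM. Des, the muscle intermediate filament desmin, stood at 141.4 against 13.2 CPM and 364.5 against 33.1 CPM. Ank1, Tagln, Cryab and Cep41 were at 147.8, 250.7, 173.5 and 167.1 CPM in 10x members against 6.98, 9.31, 23.3 and 24.1 CPM. Pdgfa, a growth factor ligand, stood at 302.1 against 20.2 CPM and 195.3 against 13.8 CPM. Several of these genes were thus counted in most Smart-seq2 members and in less than 40% of the shallower 10x members.

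**Figure D2:**
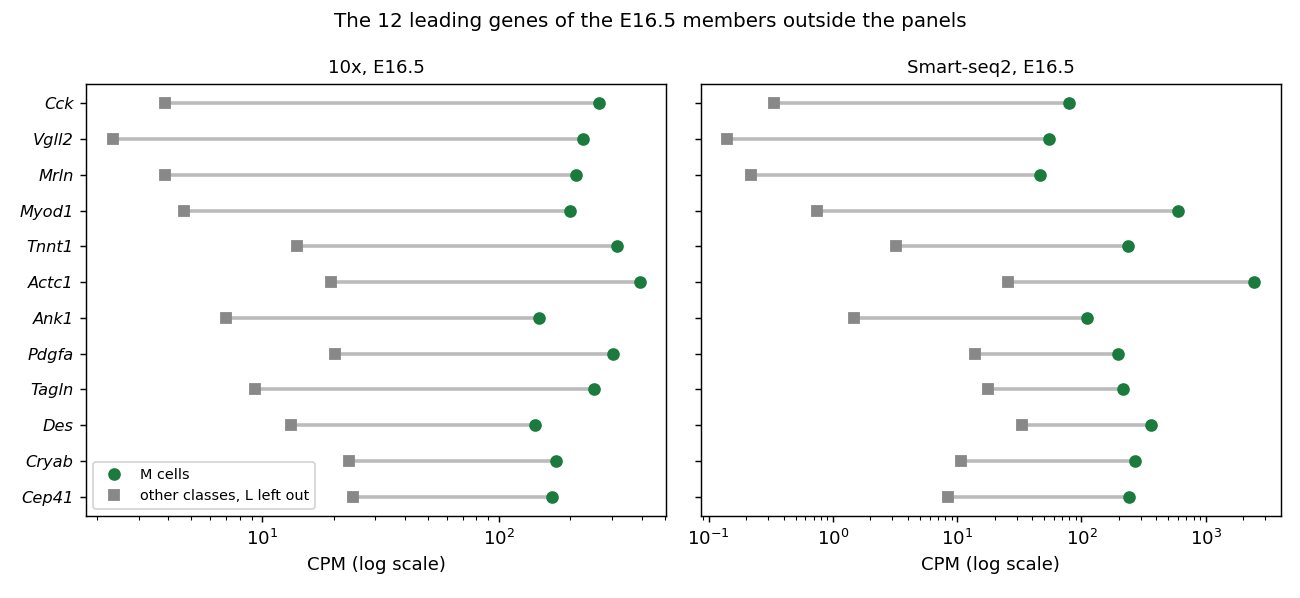
CPM on a log axis of the 12 leading genes in members (green circles) and in cells of the other E16.5 classes, L cells left out (grey squares), for 10x (left) and Smart-seq2 (right). The smallest gap on 10x was that of Cep41 (167.1 against 24.1 CPM) and the widest that of Vgll2 (224.97 against 2.33 CPM).

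The promoter letters of 3 of these genes are shown because they come from the panel (Capn6), head the leading genes (Cck) and hold the motif known best from Myod1 (Des). RefSeq (GRCm38.p6) had an entry for 11 of the 16 panel and leading genes. The 250 bases before the start were searched for the E-box CANNTG, whose letters read alike on both strands, and matches are in capitals. Each is written 5′ to 3′ on the strand of the gene, and the window of Capn6 touches the first exon of its GENCODE model.
Capn6, chrX:143827413-143827662, minus strand: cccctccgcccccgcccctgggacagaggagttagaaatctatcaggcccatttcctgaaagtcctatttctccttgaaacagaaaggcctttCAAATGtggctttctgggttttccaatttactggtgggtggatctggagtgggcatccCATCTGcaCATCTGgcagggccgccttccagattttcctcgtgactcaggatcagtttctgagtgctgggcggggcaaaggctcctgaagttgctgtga
Cck, chr9:121495695-121495944, minus strand: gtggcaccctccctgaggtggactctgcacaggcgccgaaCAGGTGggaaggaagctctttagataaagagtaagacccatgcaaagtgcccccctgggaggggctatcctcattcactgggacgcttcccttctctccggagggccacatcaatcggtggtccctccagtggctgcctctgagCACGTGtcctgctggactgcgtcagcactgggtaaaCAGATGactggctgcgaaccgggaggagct
Des, chr1:75360042-75360291, plus strand: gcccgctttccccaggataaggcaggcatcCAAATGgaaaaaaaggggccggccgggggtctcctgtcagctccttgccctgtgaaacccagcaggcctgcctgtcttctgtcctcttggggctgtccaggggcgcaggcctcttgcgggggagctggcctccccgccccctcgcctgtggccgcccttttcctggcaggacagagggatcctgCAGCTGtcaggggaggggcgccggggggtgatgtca
Capn6 and Cck held 3 matches each and Des 2, of which 1 reads CAGCTG. At least 1 match occurred in 7 of the 11 genes (63.6%), against 69.3% of all 27025 genes with an entry, and at least 3 matches in 3 of the 11 (27.3%), against 13.8% of all genes. CAGCTG occurred in 1 of the 11 (9.09%), against 14.7%. A match is a description of the letters, and the share with any match was near that of all genes.

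The comparison of M cells at E16.5 with those at E12.5 asked how the progenitors had changed between the embryonic and the fetal phase. Of 24 surface and niche genes of satellite cells 10 were higher at E16.5, of 25 basement membrane and collagen genes 5 and of 13 cell cycle inhibitors 4. Of 28 sarcomere and fusion genes 7 were higher, and of 32 genes of cell cycle progression 3. Estimates were above 0 for 30 of those 32, with a median log2 fold change of 0.57 against 0.72 for the inhibitors. Of 16 genes that dissociation is known to induce 12 were higher, 1 of them, Btg2, being among the 4 inhibitors. The median log2 fold change was 2.78 for the dissociation genes and 1.32 for the surface and niche genes. The lists were chosen with earlier results of these data known. Of 14 factors tied to the embryonic or fetal stage, Nfic, Nfix and Zbtb18 were higher and Igf2bp1 lower, with a median of 0.08. Meox1, Pax3, Erbb3 and Itga4, known from the dermomyotome and migrating cells, were lower. The sums of M and L cells per platform and day were tested with edgeR's quasi-likelihood test with platform as a term and Benjamini-Hochberg adjustment. Of 11458 genes tested, 557 passed an adjusted p of 0.05 (4.86%), with 3.07% of genes higher at E16.5 and 1.79% lower. Of the 557, 68% had the same sign on each platform alone. The calls rested on the Smart-seq2 sums: 2 genes passed without the Smart-seq2 M cells of E12.5, 58 without those of E16.5, and 2.17% of genes without the 10x M cells of E12.5, against 2.96% to 4.7% when 1 of the other M sums was left out. Without the 8 Smart-seq2 M cells of E12.5 in batches 1 and 2, a choice made after seeing the data, 4.99% of genes passed and 63.2% of the 557 were called again. Of the list genes and named genes that had passed, Sox8, Zbtb18, Gpc1, Top2a, Cdk1, Aurkb, Cdkn2c, Tnnc2, Unc45b, Lamc1, Itga6, Spry4, Etv5, Chrd, Sfrp2, Fosb and Nr4a1 then missed the threshold. A count of 0 in the 10x sum of E12.5 allows up to 35.9 CPM, so lower 10x levels of later days cannot be ordered against it.

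Of the satellite cell surface and niche genes, 10 of 24 tested were higher at E16.5 and 3 lower, with a median log2 fold change of 1.32 against -0.0034 over all genes (-0.14 with RLE scaling, so a change is read against that shift). Itga7, the laminin receptor subunit used to sort satellite cells, was at 0, 16.1 and 32.1 CPM in the 10x sums of the successive days and at 3.03, 140.8 and 377.5 CPM on Smart-seq2 (log2 fold change from E12.5 7.09 ± 0.68 SE, adjusted p = 2.39e-06). It was lowest at E12.5 on Smart-seq2, at 0.433, 2.05 and 5.23 CPM in the 3 batches of that day, and ranged from 322.99 to 401.1 CPM over the plates of E16.5. Chodl, a membrane lectin, was at 12.0, 58.1 and 51.4 CPM on 10x and at 1.87, 216.8 and 435.2 CPM on Smart-seq2 (7.70 ± 0.82, adjusted p = 4.06e-06). The 10x level of E12.5 rested on 1 count. Cd34, a sialomucin of quiescent satellite cells, was at 0, 11.3 and 57.9 CPM on 10x and at 1.71, 107.5 and 101.2 CPM on Smart-seq2 (6.29 ± 1.06, adjusted p = 0.000706). Vcam1, another sorting marker, was at 0, 21 and 12.9 CPM and at 17.9, 126.2 and 276.9 CPM (4.00 ± 0.67, adjusted p = 0.000706).

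Calcr, the calcitonin receptor that holds satellite cells in quiescence, was counted 0, 2 and 1 times on 10x and stood at 0, 6.14 and 43.5 CPM on Smart-seq2, where 15 of 64 members had it. At E16.5 it was at 0 in the 15 members of plate 1 and at 74.2 CPM on plate 2. Smart-seq2 counts are reads of amplified cDNA, so a sum at 0 on that platform sets no lower bound on a fold. Sdc4 (2.50 ± 0.65 on the log2 scale), Dag1 (2.22 ± 0.46), Gpc1 (1.97 ± 0.55), Cd82 (1.94 ± 0.46) and Tnfrsf12a (4.46 ± 0.90), which are coreceptors, adhesion proteins and a cytokine receptor, also rose. The 3 that fell were Ngfr, the neurotrophin receptor (-4.68 ± 0.72), Cdh11 (-4.67 ± 0.89) and Erbb3 (-3.70 ± 0.64), a neuregulin receptor. Erbb3 was at 83.7, 18.6 and 0 CPM on 10x and at 256.4, 60.8 and 19.5 CPM on Smart-seq2, lower at each later day on Smart-seq2, while the 0 on 10x allows up to 19.3 CPM.

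Of the factors tied to the embryonic or fetal stage, 3 of 14 were higher at E16.5 and 1 was lower. As a whole the list hardly moved, with a median log2 fold change of 0.08 against -0.0034 over all genes. Estimates were above 0 for 7 of the 14. Nfix was at 12.0, 25.8 and 64.3 CPM on 10x and at 3.43, 21.9 and 34.7 CPM on Smart-seq2 (3.70 ± 0.77, adjusted p = 0.00525), highest at E16.5 on Smart-seq2, with 1 count on 10x at E12.5. Its relative Nfic, also with 1 count on 10x at E12.5, was at 12.0, 42.8 and 64.3 CPM and at 21.7, 163.9 and 365.1 CPM (4.17 ± 0.56, adjusted p = 5.83e-05). Zbtb18, a repressor that acts in muscle differentiation, was at 12.0, 9.69 and 32.1 CPM and at 2.41, 2.23 and 16.7 CPM (2.85 ± 0.67, adjusted p = 0.0125). Igf2bp1, an RNA-binding protein of embryonic tissues, was at 203.3, 59.8 and 57.9 CPM and at 460, 233.4 and 104.1 CPM, and fell by 1.77 on the log2 scale (SE 0.45, adjusted p = 0.0228). Lin28b, the let-7 repressor, was counted once on 10x at E12.5 and was at 19.2, 1.18 and 0.150 CPM on Smart-seq2, which missed the threshold (adjusted p = 0.0553).

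**Figure D3:**
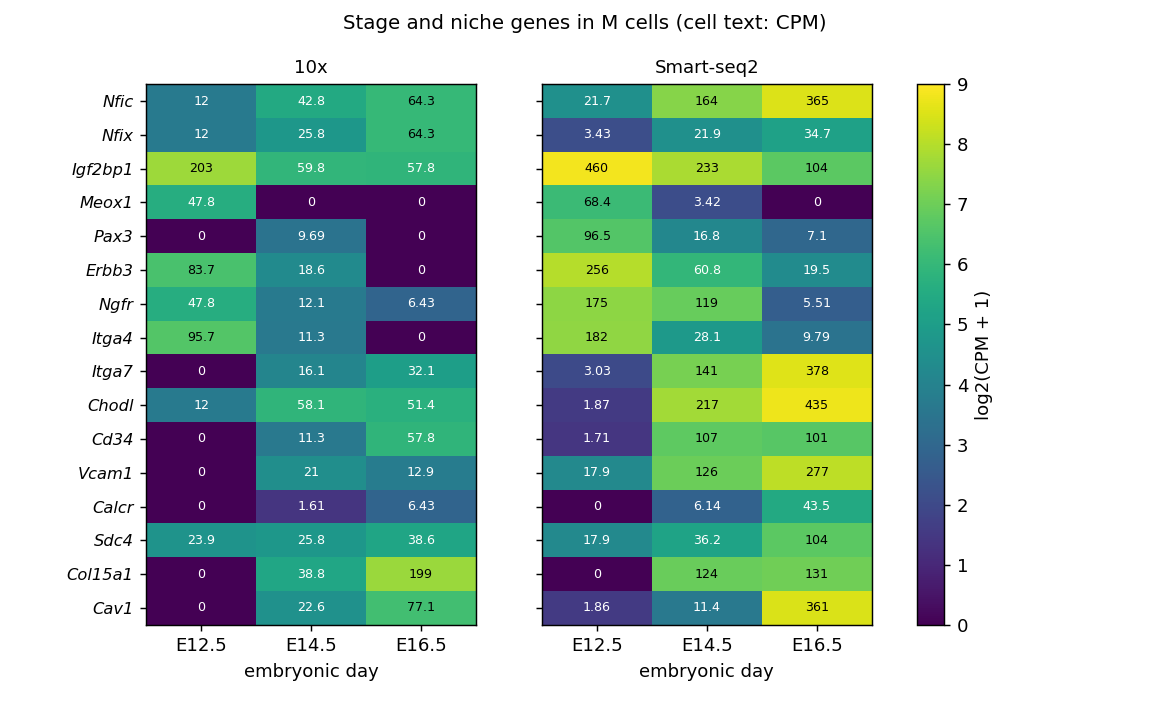
CPM of 16 genes that passed the threshold between E12.5 and E16.5, chosen after their values were seen, in M cells of each day (columns) for 10x (left) and Smart-seq2 (right), coloured by log2(CPM + 1) with the CPM written in each field. From E12.5 to E16.5 Igf2bp1 decreases on both platforms and Nfic and Nfix increase on Smart-seq2. The 10x levels of Nfic and Nfix at E12.5 rest on 1 count each. The block from Itga7 to Cav1 is at 0 in most of the 10x fields of E12.5.

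Of the myogenic transcription factors, 2 of 25 tested were higher at E16.5 and 4 lower, with a median log2 fold change of -0.41. Myod1 was at 131.5, 178.5 and 199.3 CPM on 10x and at 120, 338.7 and 596 CPM on Smart-seq2 (2.03 ± 0.49, adjusted p = 0.0153), and over the plates of E16.5 it ranged from 453.4 to 675 CPM. Sox8, an HMG-box factor of satellite cells, was at 12.0, 10.5 and 32.1 CPM and at 37.2, 75.8 and 110 CPM (1.89 ± 0.52, adjusted p = 0.0337). Pax7 did not pass, with 59.8, 66.2 and 51.4 CPM on 10x and 52.7, 51.8 and 35.5 CPM on Smart-seq2 (-0.21 ± 0.70, adjusted p = 0.920). Pax3, the factor that precedes Pax7 in the dermomyotome, was counted 0, 12 and 0 times on 10x and was at 96.5, 16.8 and 7.10 CPM on Smart-seq2 (-3.26 ± 0.84, adjusted p = 0.0243). Its fall rested on Smart-seq2 alone, and without the Smart-seq2 M cells of E12.5 the value turned to 8.82. Meox1, a homeobox factor of somites, was at 47.8, 0 and 0 CPM on 10x and at 68.4, 3.42 and 0 CPM on Smart-seq2. On 10x it was at least 2.48-fold lower at E16.5, taking 3 counts in that sum as the floor and the E12.5 level as counted. The E12.5 level rests on few UMIs, and their counting error is not in this fold. Tcf15 (paraxis) was at 13.8, 2.30 and 0 CPM on Smart-seq2. Eya1 and Mef2c did not pass (adjusted p of 0.115 and 0.950).

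Of 25 basement membrane and collagen genes, 5 rose and 0 fell, with a median log2 fold change of 1.33. Col15a1, a collagen that anchors the membrane to the tissue, was at 0, 38.8 and 199.3 CPM on 10x and at 0, 123.5 and 130.6 CPM on Smart-seq2. On 10x it was at least 5.56-fold higher at E16.5 than at E12.5, with the same floor and the E16.5 level as counted. It was counted in 60 of the 64 Smart-seq2 members and ranged from 67 to 214.2 CPM over the plates. The laminin chains Lama5 (2.90 ± 0.72) and Lamc1 (2.38 ± 0.68), Col4a1 (1.62 ± 0.47) and Sparc (1.60 ± 0.39), a collagen chaperone, were the others that rose. Of 15 integrin and dystroglycan complex genes, Sgca (2.85 ± 0.59), Sgcb (2.83 ± 0.55) and Itga6 (2.23 ± 0.64) rose. Itga4, the fibronectin and Vcam1 receptor, fell by 4.06 on the log2 scale (SE 0.62, adjusted p = 0.000254), from 95.7 to 0 CPM on 10x and from 181.6 to 9.79 CPM on Smart-seq2.

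Mesenchymal transcripts in M cells moved with the day as well. Ogn, an extracellular proteoglycan of the panel of P cells, was at 0, 77.5 and 38.6 CPM on 10x and at 30.7, 111.95 and 217.7 CPM on Smart-seq2. Postn, a matrix protein of the same panel, went from 12.0 to 64.3 CPM on 10x and from 105.9 to 399.2 CPM on Smart-seq2 between E12.5 and E16.5. The panel of P cells had to score lower than that of M cells, so the rule used both genes and their levels are a description. Of the Smart-seq2 M cells, 3 of 44, 25 of 54 and 35 of 64 also reached the threshold on the panel of P cells. The summed level of Col1a1, Col3a1, Pdgfra and Dcn was 187.3, 383.9 and 942.5 CPM on 10x but 1378, 1373 and 1051 CPM on Smart-seq2. The part of these transcripts in the collagen and matrix results was not tested.

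Of 32 genes of cell cycle progression, Aurkb (2.24 ± 0.58), Cdk1 (1.87 ± 0.51) and Top2a (1.59 ± 0.42) rose and 0 fell, the 3 missing the threshold without batches 1 and 2 of E12.5, and Mki67 did not pass (0.81 ± 0.46, adjusted p = 0.388). Of the 32, 30 had estimates above 0 (median log2 fold change 0.57). Of 13 inhibitors 4 rose, and 10 had estimates above 0 (median 0.72). Cdkn1c, which encodes p57, was at 2332, 5837 and 3805 CPM on 10x and at 948, 2163 and 1313 CPM on Smart-seq2 (0.91 ± 0.26, adjusted p = 0.0456), the peak being at E14.5 on both. Cdkn1a, which encodes p21, was at 12.0, 38.8 and 57.9 CPM and at 28.4, 15.4 and 106.9 CPM (2.06 ± 0.59, adjusted p = 0.0434). Btg2 rose by 3.28 ± 0.48 and is also a member of the dissociation stress list. Cdkn2c was at 0, 4.25 and 5.71 CPM on Smart-seq2.

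Of 28 sarcomere and fusion genes, 7 rose and 1 fell (median log2 fold change 1.10, or 0.89 with genes at 0 set to the floor of 3 counts). Actc1 was at 59.8, 327.8 and 392.1 CPM on 10x and at 686, 1342 and 2452 CPM on Smart-seq2 (2.26 ± 0.34, adjusted p = 0.000196), and Des at 83.7, 111.4 and 141.4 CPM and at 113.7, 184.8 and 364.5 CPM (1.70 ± 0.43, adjusted p = 0.0220). The fast troponins Tnnt3, Tnni2 and Tnnc2 rose from at most 1.23 CPM to 9.93, 26.9 and 2.02 CPM on Smart-seq2, low levels for contractile genes (Tnnc2 turned to -6.98 on the log2 scale without the Smart-seq2 M cells of E16.5), and Tnnt2 (1.97 ± 0.43) and the perinatal myosin Myh8 (2.60 ± 0.57) rose too. Unc45b, a myosin chaperone, fell from 11.5 to 0.244 CPM on Smart-seq2, the latter from 1 cell, and its log2 fold change was -0.33 without batches 1 and 2 of E12.5 and 2.58 without all Smart-seq2 M cells of E12.5. Mymk, which drives fusion, did not pass (-0.56 ± 0.51, adjusted p = 0.629).

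Of 83 genes of 5 signalling lists 14 passed (16.9%), against 4.86% of all genes. Since the lists were chosen with earlier results of these data known, these shares are a description. Of the 14, Spry4, Etv5, Chrd and Sfrp2 missed the threshold without batches 1 and 2 of E12.5. Of 20 Notch pathway genes 3 rose and 0 fell: the ligand Dll1 (2.35 ± 0.58, adjusted p = 0.0193), Jag2, listed at 0, 11.7 and 6.56 CPM on Smart-seq2, and the imprinted Notch relative Dlk1. Dlk1 was at 131.5, 1359 and 2610 CPM on 10x and at 46.6, 486.2 and 288.6 CPM on Smart-seq2 (3.61 ± 0.45, adjusted p = 2.68e-05), so the platforms differed in which later day was highest. Without the Smart-seq2 M cells of E12.5 the value of Dll1 turned to -0.044, that of Spry4 to -0.26 and that of Sfrp1 to 3.40. The targets Heyl (0.63 ± 0.54) and Hey1 (-0.31 ± 0.53) did not pass. Of 18 Wnt pathway genes 1 rose and 3 fell, with a median log2 fold change of -1.52: Sfrp2 rose by 2.12 ± 0.61, and Sfrp1, Axin2 and Lgr5 went from 25.7, 13.4 and 43.9 CPM to 0.0375, 0.0375 and 0.309 CPM on Smart-seq2. Of 14 Fgf and Hgf genes, the feedback genes Spry4 (2.64 ± 0.66) and Etv5 (2.28 ± 0.61) rose and Fgf5 fell (-7.29 ± 1.19). Of 20 Bmp and Tgf-beta genes Chrd (3.22 ± 0.82) and Tgfbr2 (2.65 ± 0.67) rose, and of 11 Igf genes Igfbp7 rose, from 0 to 4.85 CPM on Smart-seq2, and Igfbp2 fell (-1.41 ± 0.41). Of 14 imprinted growth genes Dlk1 and Cdkn1c rose.

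**Figure D4:**
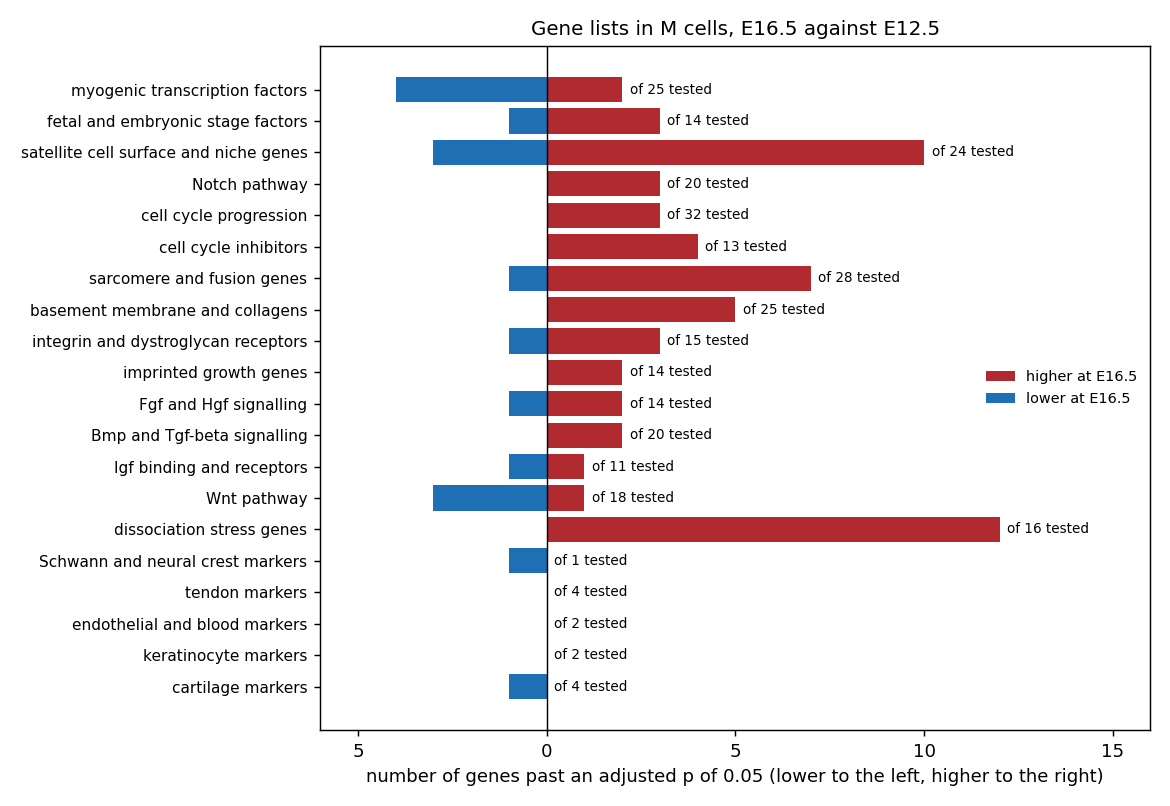
Number of genes of each list that passed an adjusted p of 0.05 between E12.5 and E16.5 in M cells, higher at E16.5 to the right (red) and lower to the left (blue), with the number tested beside each bar. The longest bars are those of the dissociation stress genes (12 of 16 higher) and of the satellite cell surface and niche genes (10 of 24 higher, 3 lower).

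Stress genes and depth moved with the day. Of 16 genes that enzymatic dissociation is known to induce, 12 rose and 0 fell (median log2 fold change 2.78), of which Fosb and Nr4a1 missed the threshold without batches 1 and 2 of E12.5. Their summed level in M cells was 1232, 2041 and 2565 CPM on 10x and 1607, 4284 and 9019 CPM on Smart-seq2, and Dispase was used at E14.5 and E16.5 only. Fos was at 143.5, 223.7 and 347.1 CPM on 10x and at 192.6, 573 and 1978 CPM on Smart-seq2, and ranged from 945 to 2526 CPM over the plates of E16.5. The part of digestion, and of the lower Smart-seq2 depth of E12.5, in the other results was not tested. Between E14.5 and E16.5, 0 of the 16 passed in edgeR, although 15 had estimates above 0 (median 1.09).

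By the rule for named genes, which asks for the same sign on both platforms and a mean log2 CPM of at least 4, the 12 largest increases from E12.5 to E16.5 were Col15a1, Csgalnact1, Upp1, Cav3, Syne3, Htra3, Mt2, Traf3ip3, Paxx, Chodl, Cav1 and Itga7. Cav1 and Cav3, the caveolins of which Cav3 is the muscle form, reached 361.1 and 13.1 CPM on Smart-seq2 from 1.86 and 0 CPM, and 77.1 and 32.1 CPM on 10x from 0 for each. Csgalnact1, which starts chondroitin sulphate chains, went from 0 to 106.3 CPM on Smart-seq2 and from 0 to 45 CPM on 10x. Htra3, a secreted serine protease, went from 0.682 to 193.3 CPM and from 0 to 32.1 CPM. Upp1, uridine phosphorylase, went from 0 to 65.5 CPM on Smart-seq2. Traf3ip3, Paxx and Syne3 reached 38.4, 22.1 and 11.6 CPM on Smart-seq2 from at most 0.202 CPM, each with 1 or 2 UMIs on 10x. The metallothionein Mt2 went from 12.0 to 122.1 CPM on 10x and from 0 to 16.6 CPM on Smart-seq2.

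The 12 largest decreases were Col2a1, Sulf2, Stra6, Ngfr, Chd3, Itga4, Moxd1, Mn1, Tmem119, Erbb3, Fat3 and Rab3il1. Stra6, the retinol transporter, went from 278.9 to 3.30 CPM on Smart-seq2 and from 23.9 to 0 CPM on 10x (-6.09 ± 0.72, adjusted p = 2.02e-05). Sulf2, which trims heparan sulphate, went from 217.7 to 1.93 CPM and from 47.8 to 6.43 CPM (-6.29 ± 0.87, adjusted p = 9.66e-05). Moxd1, a copper-dependent monooxygenase relative, went from 481.4 to 21.2 CPM on Smart-seq2 and from 47.8 to 0 CPM on 10x (-4.04 ± 0.80). The chromatin remodeller Chd3 went from 101.4 to 4.23 CPM and from 95.7 to 6.43 CPM (-4.37 ± 0.61). Mn1 (-3.88 ± 0.66), Tmem119 (-3.79 ± 0.76), the protocadherin Fat3 (-3.56 ± 0.85) and Rab3il1 (-3.54 ± 0.79) were at 0 on 10x at E16.5 and at 7.83 to 13.2 CPM on Smart-seq2. All of these genes were thus still counted in some Smart-seq2 members at E16.5.

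Between E14.5 and E16.5, fewer genes separated the M cells. Of the same 11458 genes 41 passed (0.358%), 26 higher at E16.5 (0.227%) and 15 lower (0.131%), with a median log2 fold change over all genes of -0.08. Of the 41, 22 had the same sign on each platform. The number was 0 without the Smart-seq2 M cells of E14.5 and 0 without those of E16.5 (2.78% and 3.24% of genes at an unadjusted p under 0.05, and 7.27% with all sums), 15 without the 10x M cells of E12.5, 70 without those of E16.5 and 28 or 43 without 1 of the other M sums. DESeq2 with all sums called 18. Without the Smart-seq2 M cells of E14.5 in batch 3, 58.5% of the 41 genes were called again, and without those in batch 4 70.7%. No gene of the myogenic transcription factors, the Notch pathway or the cell cycle lists passed, and of 24 satellite cell surface and niche genes 1 did, although 20 of the 24 had estimates above 0 (median 0.63). Itga7 (1.46 ± 0.45, adjusted p = 0.240), Cdkn1a (1.91 ± 0.56, adjusted p = 0.196) and Myod1 (0.63 ± 0.42, adjusted p = 0.911) did not pass. These p values do not show that the levels were alike.

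The 12 largest increases were Myh3, Sel1l3, Cav1, Upp1, Emp2, Mt1, Tmod1, Mt2, Palmd, Fhl1, Zbtb18 and S100a16. Fhl1, a LIM protein of muscle, was at 25.8 and 109.3 CPM on 10x and at 22.8 and 255.2 CPM on Smart-seq2 (2.93 ± 0.56, adjusted p = 0.0128), and was counted in 56 of 64 Smart-seq2 members. Cav1 was at 22.6 and 77.1 CPM and at 11.4 and 361.1 CPM (3.89 ± 0.74, adjusted p = 0.0128). The metallothioneins Mt1 and Mt2 were at 18.6 and 34.7 CPM on 10x at E14.5 and at 96.4 and 122.1 CPM at E16.5, and on Smart-seq2 they went from 0.846 and 1.12 to 18 and 16.6 CPM. Mt1 changed by 3.70 ± 0.59 (adjusted p = 0.00268) and Mt2 by 3.29 ± 0.72 (adjusted p = 0.0452). Palmd rose by 2.97 ± 0.53, S100a16 by 2.52 ± 0.49, Tmod1, which caps actin filaments, by 3.54 ± 0.61, and Emp2 by 3.80 ± 0.72. Some of these changes lay in few cells. The embryonic myosin Myh3 was at 0 CPM on Smart-seq2 at E14.5 and at 4.33 CPM at E16.5 in 5 of 64 members, 41.6% of it in 1 cell, and was counted once on 10x on each day. Of the Smart-seq2 counts of Sel1l3 at E16.5, 58.8% came from 1 cell, and its value turned to -0.22 without the Smart-seq2 M cells of E14.5. Upp1, Mt2 and Sel1l3 missed the threshold without batch 3 of E14.5 and again without batch 4, Emp2, Tmod1 and Col2a1 without batch 3, and Zbtb18, S100a16 and Lgr5 without batch 4.

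Only 4 decreases met the rule for named genes, namely Col2a1, Kremen2, Stra6 and Ngfr. Stra6 fell by 4.44 on the log2 scale (SE 0.67, adjusted p = 0.00178), from 76.1 to 3.30 CPM on Smart-seq2 and from 8.07 to 0 CPM on 10x. Ngfr fell by 3.89 (SE 0.68, adjusted p = 0.00653), from 118.9 to 5.51 CPM and from 12.1 to 6.43 CPM. Kremen2, a Dickkopf receptor, went from 9.78 to 0.330 CPM on Smart-seq2 (-4.63 ± 0.71). Lgr5, an R-spondin receptor, fell as well, from 19.7 to 0.309 CPM (-5.64 ± 1.23, adjusted p = 0.0447). Col2a1, the cartilage collagen, was at 496.4 CPM on Smart-seq2 at E14.5, but 96.7% of that came from 1 of 54 cells, and Acan, its partner in cartilage, was counted in 1 cell alone. These cartilage genes therefore describe that cell, which by its panel score was an M cell.

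To see which changes the members did not share with other cells of the same libraries, the change from E14.5 to E16.5 was compared with that in L cells and with the mean of P and D cells. Against L cells 64 of 11458 genes differed (0.559%), 53 more positive in M cells (0.463%) and 11 more negative (0.096%). Against P and D cells 39 of 13500 genes differed (0.289%), 27 more positive (0.2%) and 12 more negative (0.0889%). DESeq2 called 0 and 0, with 2.38% and 1.54% of genes at an unadjusted p under 0.05, where edgeR had 7.82% and 6.38%. Leaving out 1 M sum at a time gave 9 (without the Smart-seq2 M cells of E16.5) to 76 genes against L cells, with 15 without those of E14.5, 19 without those of E12.5, and 24 and 28 without the 10x M cells of E12.5 and E14.5. Against P and D cells it gave 0 without the Smart-seq2 M cells of E14.5 (2.62% at an unadjusted p under 0.05), 1 without those of E16.5, 20 without those of E12.5 and 27 to 52 otherwise. These contrasts share their M sums with the comparison of days and are not independent of it.

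Palmd, a paralemmin relative, went from 5.18 to 46.1 CPM in M cells on Smart-seq2, while it was at 0.817 and 0.0228 CPM in P cells and 0.0781 and 0.0772 CPM in D cells (difference of log2 changes 5.27 ± 0.99, adjusted p = 0.0278). Srpk3, a kinase under Mef2 control, and Trim55, a sarcomere ubiquitin ligase, differed from L cells and were at 0 in M cells of E14.5 and at 4.68 and 2.34 CPM at E16.5, in 4 and 5 Smart-seq2 cells, while L cells held 146.3 and 152.1 CPM of Srpk3 and 198.9 and 136.1 CPM of Trim55. Dlgap5, a spindle gene, was at 71.8 and 47.7 CPM in M cells and at 35.5 and 0.351 CPM in L cells (6.19 ± 1.18, adjusted p = 0.0124). Gas6, a ligand of TAM receptors, was at 152.4 and 161.8 CPM in M cells and at 0 and 3.74 CPM in L cells, the latter in 2 cells. Of the satellite cell surface and niche genes 1 differed from L cells, Sdc3, at 121.8 and 29.6 CPM in M cells and at 0 and 6.59 CPM in L cells. Megf6 went from 18.4 to 0.225 CPM in M cells and was at 192.1 and 115.8 CPM in P cells and 307.4 and 316.7 CPM in D cells (-6.83 ± 1.00, adjusted p = 0.00521). Most of these differences thus rested on low levels in M or L cells.

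Among themselves the members differed in which myogenic factors were counted, which only the deeper Smart-seq2 cells resolve. Of the 64 Smart-seq2 members of E16.5, 33 had counts of both Pax7 and Myod1, 8 of Pax7 without Myod1, 20 of Myod1 without Pax7 and 3 of neither. At E14.5 these numbers were 40, 8, 4 and 2 of 54. The share of cells with a Pax7 count, in cells thinned to 100000 counts, was 69.8%, 75.9% and 48.4% on the successive days (exact 95% binomial intervals 53.9 to 82.8, 62.4 to 86.5 and 35.5 to 61.4), and unthinned 75.0%, 88.9% and 64.1%. On 10x, thinned to 1000 UMIs, it was 3.45%, 5.23% and 3.90%, where no order can be read. In D cells, which should lack Pax7, it was counted in 0 of 61 thinned Smart-seq2 cells and in 0.407% of thinned 10x cells of E16.5. Pax7 ranged from 16.7 to 51.8 CPM over the 4 plates of E16.5.

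Over the 64 Smart-seq2 members the level of Myod1 went down with that of Myf5 (Spearman's rho -0.51, Pearson's r -0.49) and of Pax7 (rho -0.34, r -0.28), and up with that of Myog (rho 0.38, r 0.40). Within the 4 plates the rho of Myf5 and Myod1 was -0.63, -0.54, -0.56 and -0.28, and that of Pax7 and Myod1 -0.10, -0.35, -0.07 and -0.81, so the former held its sign and size on 3 plates and the latter was weak on 2. Pax7 and Myf5 went together (rho 0.38). Myf5 belongs to the panel that chose the members and Myog to a panel that had to score lower, so the correlations with both were drawn from values the rule used. All are over cells of 1 day and share the cell's total in both terms. Myf5 was counted in 32 of the 33 cells with Pax7 and Myod1, in all 8 with Pax7 alone and in 11 of the 20 with Myod1 alone.

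**Figure D5:**
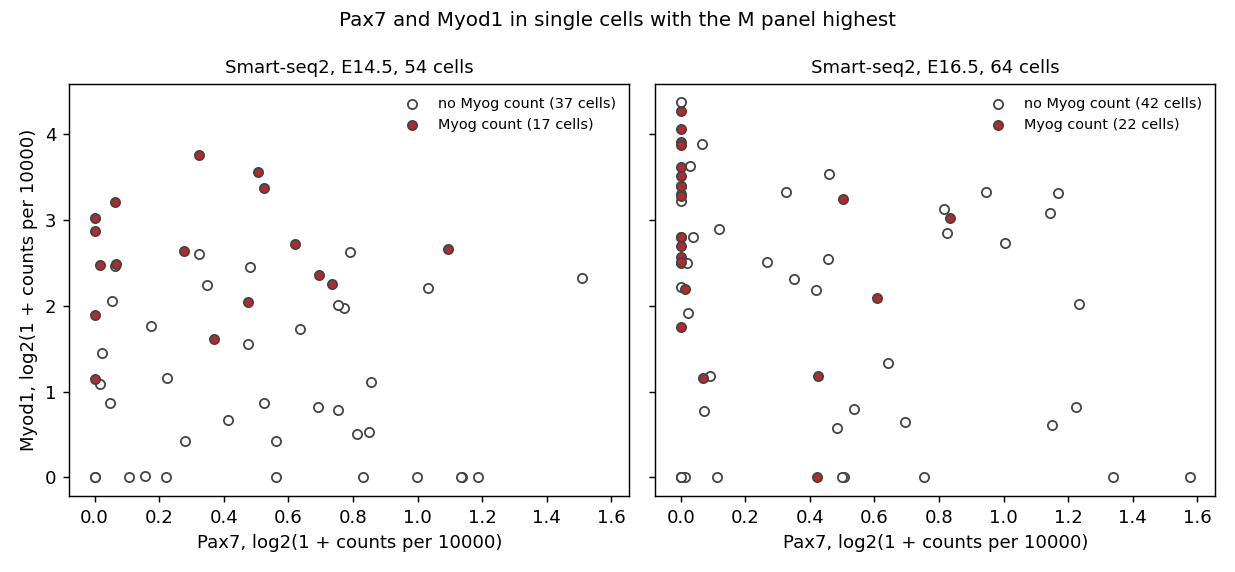
Level of Pax7 (horizontal) and Myod1 (vertical), each as log2(1 + counts per 10000), in every Smart-seq2 M cell of E14.5 (left) and E16.5 (right), filled red where Myog was counted (17 of 54 and 22 of 64 cells). At E16.5 a column of cells without Pax7 counts has high Myod1, and most cells with Myog stand in it.

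Myog, whose panel was also used by the rule, was counted in 22 Smart-seq2 members, 7 of them with Pax7 and 15 without. Of the 15 with Myog but no Pax7, 12 had the Notch ligand Dll1 and 7 had Mymk, and of the 34 with Pax7 but no Myog 3 had Dll1 and 0 had Mymk. Heyl, a Notch target, was counted in 28 of those 34 and in 9 of those 15, Chodl in 32 and 11, and Itga7 in 33 and 14. Cdkn1a was counted in 24 of the 34 and 13 of the 15. Counts of at least 3 of 5 cycle genes were found in 45 of the 64 Smart-seq2 members and in 17 of the 84 10x members, among them 18 Smart-seq2 members with Myog. The count of a cycle gene depends on depth, and no share of cycling cells is drawn from it.

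On the lists of markers of other cell types, genes were at 0 or low, with Sox9 and Pecam1 the most abundant. Of 4 Schwann cell markers Sox10 was at 0 on both platforms in the members, and the summed level was 0 CPM on 10x and 20.1 CPM on Smart-seq2, nearly all of it Erbb3. Of 5 tendon markers Tnmd and Kera were at 0 on both (sums 32.1 and 19 CPM). Of 9 endothelial and blood markers Cdh5, Hbb-bs and Csf1r were at 0 on both (19.3 and 46.6 CPM), of 4 keratinocyte markers Krt14 and Krt15 (19.3 and 16.2 CPM), and of 4 cartilage markers Acan (51.4 and 107.5 CPM). Nearly all of the Smart-seq2 endothelial sum was Pecam1, which was counted in all 64 members at 46.1 CPM, as in every Smart-seq2 cell of P, D, L and A cells of that day (32.5 to 51.1 CPM), and in 2 10x members. Nearly all of the cartilage sum on Smart-seq2 was Sox9, which was counted in 55 of the 64 members at 105.7 CPM, against 192.6 CPM in P cells and 6.44 CPM in D cells, and in 6 10x members. A count of 0 allows up to 19.3 CPM in the 10x sum of E16.5, taking 3 counts as the limit, and sets no such limit on Smart-seq2. Of the panels of other classes, Twist2 was counted in 1 10x member and 0 Smart-seq2 members, while Ogn and Postn were counted in 52 and 46 Smart-seq2 members and in 6 and 10 10x members.

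In the sorted bulk libraries of E16.5 with a clear label, 2 libraries of Pdgfra-/Cd36+ cells that the methods describe as technical duplicates, the panel genes other than Capn6 were near 0. Msc was at 0.201 and 1.28 CPM, Cdh15 at 0.362 and 1.37 CPM, Myf5 at 0.0804 and 0.0304 CPM and Pax7 at 0.121 and 0.152 CPM, beside 4576 and 3935 CPM of the adipocyte gene Fabp4. Capn6 stood at 16.9 and 25 CPM, and Des, a leading gene of the members, at 6.56 and 10.8 CPM. The Cd36+ gate thus held little Msc, Cdh15, Myf5 and Pax7, while Capn6 and Des were counted in both libraries.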

How the data were processed

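Per the labels, YFP+ cells of the Pax7 lineage were profiled by 10x and Smart-seq2. The 10x tables hold counts of UMIs per gene that the authors made with Cell Ranger on GRCm38, and the Smart-seq2 tables hold expected counts that the authors estimated with kallisto 0.44.0 and summed per gene. The deposited bulk tables hold expected counts as well, of which 16 columns were not used because their names fix no sample. The deposited single-cell tables hold fewer cells than the number the study's methods kept, and no cell annotation was used here, so classes were rebuilt from the panels.

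Counts were summed per class, day and platform where a class had at least 20 cells, over the 15147 genes of both tables, with expected counts rounded. L cells of E12.5 on Smart-seq2 (15 cells) gave no sum. The 11 sums of M and L cells, or the 31 sums of all classes for the contrast with P and D cells, were fitted with edgeR 4.0.16 (R 4.3.3, TMM factors, filterByExpr, quasi-likelihood F test, platform as a term, Benjamini-Hochberg threshold 0.05). The standard error is the log2 fold change over the square root of F. The fit of M and L sums had 4 residual degrees of freedom and 18.7 prior ones drawn from all genes. That of all sums had 13 and 6.2. Panel genes were left out of all counts of calls. On simulated sums part of the calls were false, a larger part than the threshold allows, so single calls are weak. Binomial and Poisson intervals are exact and at 95%, and the floor for a gene at 0 is 3 counts per sum. Doublets were called by Scrublet (scanpy 1.11.5, Python 3.11.15) and kept, and the alternative leaves them out.

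Named genes were the 12 largest increases and decreases per comparison of days (8 for differences between classes) that passed, had 1 sign on both platforms and a mean log2 CPM of at least 4, besides the panel genes, the genes of fixed lists and the 12 leading genes of E16.5. Members and lists were chosen with earlier results of these data known. Alternatives were DESeq2 1.42.0, RLE factors, no filter on low counts, leaving out cells over 8% mitochondrial counts, doublets or each M sum, members with at least 2 panel genes, 10x cells thinned to 1000 UMIs, other sets of sums in the fit and, chosen after seeing the data, leaving out Smart-seq2 sequencing batches of M cells. Results of some genes are not reported here.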

Additional observations from a re-analysis of the deposited data

Results flagged for a closer look

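The genes here were noted because their change from E14.5 to E16.5 differed between M cells and another class by edgeR's test of the difference, with Benjamini-Hochberg adjustment. DESeq2 called 0 of them. All levels are CPM on Smart-seq2, first E14.5 and then E16.5, and many rest on a class at or near 0 on 1 day.

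Against L cells, the difference was positive for Kctd15, at 24.6 and 17.6 CPM in M cells and 11.3 and 0 CPM in L cells (adjusted p = 0.00617). Map2, a microtubule protein, was at 53.5 and 49.6 CPM in M cells and at 4.55 and 0 CPM in L cells (adjusted p = 0.00839). Slc43a3 was at 52.6 and 65.3 CPM and at 1.59 and 0 CPM (adjusted p = 0.0418). Dab2, an endocytic adaptor, was at 21.9 and 9.20 CPM and at 21.2 and 0.0984 CPM (adjusted p = 0.00842). In these genes L cells were at or near 0 at E16.5. Srpk3, Trim55 and Myh3 were at 0 in M cells of E14.5 and had adjusted p of 0.00104, 0.00169 and 0.00247, with Myh3 at 4.33 CPM in M cells of E16.5 against 762 and 260 CPM in L cells. The adjusted p of Dlgap5 was 0.0124. The difference was negative for Gas6 (adjusted p = 0.00561) and Jcad, the latter at 32 and 79.3 CPM in M cells and 0.236 and 17 CPM in L cells (adjusted p = 0.0406).

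Against P and D cells, the difference was positive for Samd10, at 0 and 1.42 CPM in M cells, 6.01 and 0 CPM in P cells and 0.479 and 0 CPM in D cells (adjusted p = 0.00195). Srpk3 was at 2.60 and 0.751 CPM in P cells and 1.78 and 0.222 CPM in D cells (adjusted p = 6.93e-05). Ctnna2 was at 0.0184 and 2.49 CPM in M cells, 14.1 and 1.63 CPM in P cells and 51.5 and 8.79 CPM in D cells (adjusted p = 0.000934). Astn1 was at 0.129 and 0.562 CPM in M cells (adjusted p = 0.0431) and Map6 at 0.0736 and 0.581 CPM (adjusted p = 0.0109), and Palmd had an adjusted p of 0.0278. The difference was negative for Syt1, at 1.32 and 0 CPM in M cells (adjusted p = 0.0431), for Tspan11, at 4.54 and 0 CPM in M cells, 40.3 and 34.4 CPM in P cells and 106.6 and 83.9 CPM in D cells (adjusted p = 0.0275), and for Megf6 (adjusted p = 0.00521).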

How the results depend on the processing

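No paired analysis was possible because the cell sums carry no replicate number. The values are the percent of tested genes that were called. Between E14.5 and E16.5, 0.358% were called, against 0.157% with DESeq2, 0.104% with members that had at least 2 panel genes, 2.07% with M sums alone in the fit and 0 to 0.518% when 1 M sum was left out. Between E12.5 and E16.5 the 4.86% became 2.18% with DESeq2, 2.08% with at least 2 panel genes, 10.9% with M sums alone and 0.0182% to 4.7% when 1 M sum was left out. With sums of all classes it was 4.02%, and 280 of the 557 genes were called again. The difference from L cells went from 0.559% to 0 with DESeq2, 0.262% with RLE factors, 0.185% with at least 2 panel genes and 0.0802% to 0.562% when 1 M sum was left out. That from P and D cells went from 0.289% to 0 with DESeq2, 0.157% without cells over 8% mitochondrial counts and 0 to 0.38% when 1 M sum was left out. The 10x share of members was 8.85%, and became 4.74% with at least 2 panel genes, 6.98% at 1000 UMIs and 4.43% at a score threshold of 1.2. Leaving out the Smart-seq2 M cells of 1 or more sequencing batches was chosen after seeing the data. Between E12.5 and E16.5, 2.93% were called without batch 4 of E14.5. The difference from L cells went to 0.348% without batches 1 and 2 of E12.5 and 0.261% without batch 4 of E14.5, and that from P and D cells to 0.489% without batch 4. Of 1078 values of named genes between E12.5 and E16.5 under alternatives other than leaving out a sum, 882 kept direction and call and 0 changed sign. Leaving out a Smart-seq2 M sum turned the sign of some log2 values, whose range when 1 M sum was left out was -0.22 to 6.12 for Sel1l3 between E14.5 and E16.5. Between E12.5 and E16.5 it was -11.62 to 8.82 for Pax3, -0.044 to 2.51 for Dll1, -6.98 to 10.97 for Tnnc2, -7.56 to 2.58 for Unc45b, -0.26 to 3.33 for Spry4 and -10.10 to 3.40 for Sfrp1. Against P and D cells it was -0.20 to 9.31 for Astn1 and -0.79 to 7.09 for Map6. The fits in which the sign turned hold only the 10x sum of that day. The cause of the other changes was not tested. The 10x sum of E12.5 holds 83630 counts, so that 3 counts there are 35.9 CPM.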
